A study of Mus musculus with 6 samples.

Results

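The genes described here are 9 transcription factors and receptors of naive and stem-like T cells, *Tcf7*, *Lef1*, *Satb1*, *Bach2*, *Myb*, *Ccr7*, *S1pr1*, *Il7r* and *Slamf6*. They were taken from a list of gene symbols, and all 9 were found among the 35602 gene names of the count table and among the 34714 of each single-library table. All 9 also passed the filter on low counts that left 16269 genes to be tested. Expression was measured by RNA-seq in mouse splenic CD4+ T cells stimulated through CD3 and CD28 for 72 h and treated with MAPK13-inhibitors (MAPK13-IN-1) or with the solvent DMSO, 3 libraries per group. For replicates 2 and 3 the labels give wild-type cells and 17.1 µM inhibitor added after day 1. The series design instead gives 72 h in the presence of the inhibitor. The labels of the remaining pair give no genotype, dose or day. Replicates 2 and 3 were prepared with poly-T beads and deposited as counts, with totals from 26874805 to 33854760 per library. The remaining pair, whose titles carry no number and which is called replicate 1 here, was prepared with a stranded mRNA kit and deposited as length-scaled values read here as FPKM, of unknown depth, so that it entered no test. Age, and whether the libraries of a group came from separate mice or cultures, are not given in the sources used here, so p-values measure the spread between these libraries, which may be technical.

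Naive T cells circulate between blood and lymphoid organs in a resting state. TCF-1 and LEF-1, the products of *Tcf7* and *Lef1*, are related DNA-binding proteins that keep T cells able to self-renew, while Satb1, Bach2 and Myb shape chromatin or restrain effector genes. Ccr7 draws cells into lymph nodes, S1pr1 lets them leave, Il7r receives the survival cytokine IL-7, and Slamf6 (Ly108) is a surface receptor used to mark TCF-1-expressing cells. On activation, transcripts of many of these genes are known to fall as effector genes rise.

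The labelled cell type was checked against marker genes before the members were compared. CD4+ T cell transcripts were present in every library, and *Cd4* itself stood at 274.7 and 275.7 CPM (counts scaled by TMM-adjusted library size) in DMSO and at 267 and 283 CPM with the inhibitor. B cell transcripts were present as well in replicates 2 and 3. Per kilobase of exon, the 13 B cell markers found in the count table summed to 77.1% and 74.8% of the 11 CD4+ T cell markers in the DMSO libraries, and to 121% and 113% in the MAPK13-inhibitors libraries. In the replicate 1 pair the same share was 4.27% in DMSO and 3.8% with the inhibitor. The most abundant B cell marker was *Pax5*, at 177.8 and 168 CPM in DMSO and at 263 and 271 CPM with the inhibitor, and no B cell marker was at 0 counts in all 4 libraries. The preparations of replicates 2 and 3 thus held B cell transcripts at a level near that of the T cell markers. *Bach2*, *Ccr7*, *Lef1* and *Slamf6* are known to be transcribed in B lineage cells too. The cells had been isolated as CD4+ T cells with a kit before culture, and the part of such cells in the member levels was not tested. In bulk RNA, fewer cells of a type and less RNA per cell cannot be told apart.

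MAPK13-inhibitors-treated and DMSO-treated cells differed in 7 of the 9 genes (77.8%) at an adjusted p under 0.05 from edgeR's quasi-likelihood test. *Slamf6*, *Il7r*, *Bach2*, *Tcf7* and *Ccr7* were higher, *Lef1* and *Satb1* were lower, and *S1pr1* and *Myb* did not pass. Across all genes tested, 63.8% passed in either direction, 31.5% higher and 32.3% lower, so the count of members called was close to that of genes at large. The libraries of the groups did not overlap for 7 members, against 83.0% of all genes. The median absolute log2 fold change was 0.32 for the members and 0.52 for all genes tested, and *Slamf6* and *Satb1* alone among the members changed by more than 1 on the log2 scale. Without DMSO replicate 2 the number of higher members was 3 in place of 5, with *Ccr7* and *Il7r* no longer called.

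**Figure D1:**
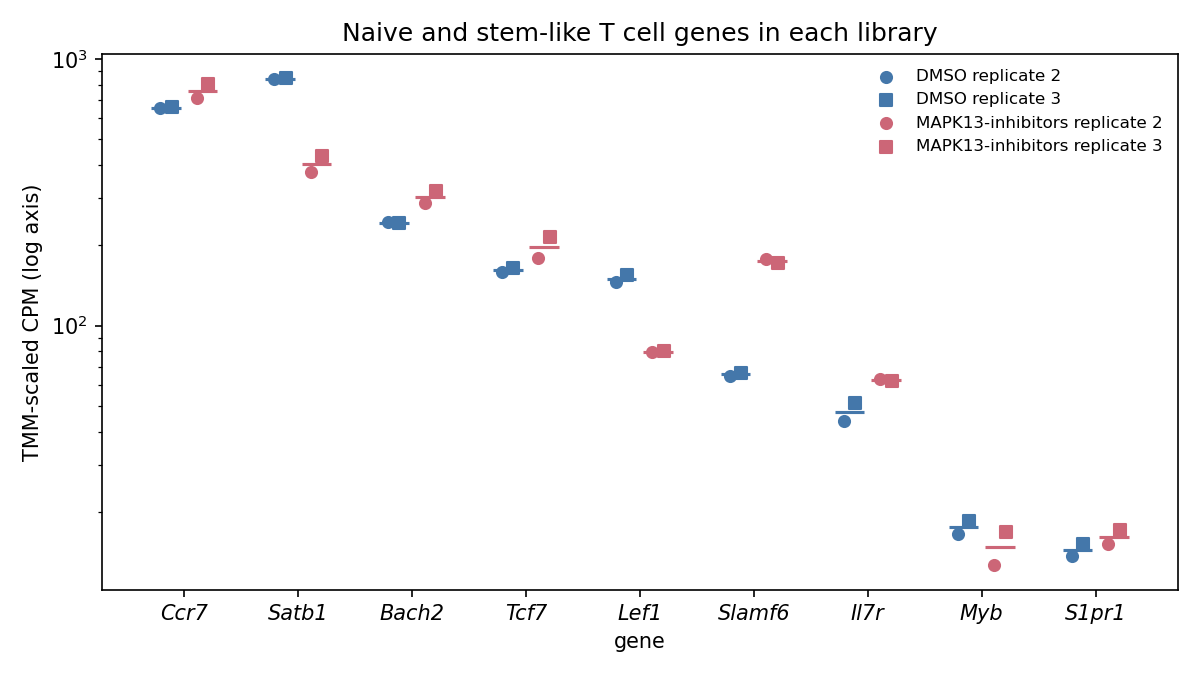
TMM-scaled CPM (log axis) of the 9 genes in each of the 4 libraries of replicates 2 and 3; points are libraries and bars are group means. The groups are separate for 7 genes and overlap for *Myb* and *S1pr1*, and *Slamf6* stands near 65.5 CPM in DMSO and 175 CPM with the inhibitor.

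*Tcf7* (chr11:52252371-52283014, GRCm38, minus strand) had 158 and 164 CPM in DMSO and 179.8 and 215 CPM in MAPK13-inhibitors-treated cells. Both inhibitor libraries lay above both DMSO libraries, and replicate 3 was the highest. The mean rose from 161 ± 4.18 to 197 ± 24.8 CPM (SD, n = 2), a log2 fold change of 0.29 (SE 0.0794, adjusted p = 0.00855, edgeR). Without MAPK13-inhibitors replicate 3 the log2 fold change was 0.15. That fit takes its spread from the DMSO pair alone, so its call is not read as a check. *Lef1* (chr3:131110471-131224356, plus strand), the paralog that recognises the same DNA core, moved the other way. It had 146 and 154 CPM in DMSO and 79.2 and 80.2 CPM with the inhibitor, with no overlap between groups. Its log2 fold change was -0.91 (SE 0.0611, adjusted p = 7.34e-07, edgeR), a level 0.531 times that in DMSO. The ratio of *Tcf7* to *Lef1*, each per kilobase, was therefore 3.63 and 3.57 in the DMSO libraries and 7.6 and 8.97 in the MAPK13-inhibitors libraries. From the FPKM of the replicate 1 pair this ratio was 1.35 in DMSO and 1.54 with the inhibitor.

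*Satb1* (chr17:51736187-51833290, minus strand), which encodes a chromatin organiser needed for T cell development, showed the largest fall among the 9 genes. Its values were 841 and 845 CPM in DMSO and 375 and 432 CPM with the inhibitor, and the groups were far apart. The log2 fold change was -1.06 (SE 0.0653, adjusted p = 4.27e-07, edgeR). *Bach2* (chr4:32238804-32586108, plus strand), a repressor that restrains effector differentiation, had 244 and 243 CPM in DMSO and 288 and 320.5 CPM with the inhibitor. The DMSO libraries were nearly equal and both inhibitor libraries were higher, by 0.32 on the log2 scale (SE 0.0614, adjusted p = 0.00098, edgeR). *Myb* (chr10:21124935-21160984, minus strand), a factor linked to self-renewal of blood and T cell progenitors, was scarce. It had 426 and 503 counts in DMSO and 448 and 571 with the inhibitor, which correspond to 16.5 and 18.5 CPM and to 12.6 and 16.9 CPM. The groups overlapped, and the log2 fold change of -0.25 (95% interval -0.57 to 0.06) did not pass (adjusted p = 0.147, edgeR). The size of this change depended on single libraries. Without MAPK13-inhibitors replicate 3 the value was -0.48, and without replicate 2 of the same group it was -0.06.

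*Ccr7* (chr11:99144196-99155077, minus strand) is the receptor for the lymph node chemokines CCL19 and CCL21. It had 652 and 659.9 CPM in DMSO and 714 and 807 CPM in MAPK13-inhibitors-treated cells, so both inhibitor libraries were higher. The log2 fold change was 0.21 (SE 0.0607, adjusted p = 0.0102, edgeR), a level 1.16 times that in DMSO. It was 0.12 without MAPK13-inhibitors replicate 3 and 0.19 without DMSO replicate 2, where it was no longer called. *S1pr1* (chr3:115710433-115715072, minus strand), the sphingosine 1-phosphate receptor that acts in egress, had 13.7 and 15.2 CPM in DMSO and 15.2 and 17.1 CPM with the inhibitor. The groups overlapped. The log2 fold change of 0.16 (95% interval -0.10 to 0.42) did not pass (adjusted p = 0.243, edgeR), and it ran from 0.07 to 0.25 as libraries were left out in turn. It passed only when libraries were scaled by their totals alone, at 0.29 with an adjusted p of 0.0468 from edgeR (0.0468 to 0.747 over all alternatives), a scaling under which the median of all genes was itself 0.14.

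*Il7r* (chr15:9505788-9530176, minus strand), the alpha chain of the IL-7 receptor, had 43.7 and 51 CPM in DMSO and 62.8 and 62 CPM with the inhibitor. Both inhibitor libraries were above both DMSO libraries, and the DMSO pair was the more spread. The log2 fold change was 0.40 (SE 0.084, adjusted p = 0.00193, edgeR). It was 0.28 without DMSO replicate 2, where it was no longer called. *Slamf6* (chr1:171917515-171953170, plus strand) had the largest change of the 9 genes. Its values were 64.5 and 66.6 CPM in DMSO and 177 and 172 CPM in MAPK13-inhibitors-treated cells, far above. The level was 2.66 times that in DMSO, a log2 fold change of 1.41 (95% interval 1.28 to 1.55, adjusted p = 5.2e-08, edgeR), which exceeded that of 90.8% of the genes tested.

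Some of these loci share sequence with annotated neighbours on the other strand. In GENCODE vM21, exons of *Bach2os* lie opposite exons of *Bach2*, those of *Gm26577* opposite *Myb*, those of *Gm43352* opposite *Lef1* and those of *Gm6934* opposite *Satb1*. *Bach2os* had 20 and 18 counts in DMSO and 17 and 17 with the inhibitor, far below the 6289 to 10859 counts of *Bach2*. *Gm37065*, opposite *Slamf6* without overlap of exons, had 16 and 18 counts in DMSO and 67 and 56 with the inhibitor, against 1662 to 6292 counts of *Slamf6*. The antisense partners of *Myb*, *Lef1* and *Satb1* are not in the count table by name. Exons of *Gm36931* overlap *Satb1* on the same strand, and it is not in the table by name either. Whether counting used strand is not given in the sources used here, so reads of a gene and of its antisense partner cannot be told apart.

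The replicate 1 pair gave a different picture for several members, as values with no replicate check. *Satb1* was lower with the inhibitor, at 169 FPKM in DMSO and 97.2 FPKM, and *Slamf6* was higher, at 38 and 63 FPKM. *Tcf7* was at 59.4 and 73.5 FPKM and *Il7r* at 17.1 and 21.4 FPKM, both in the direction seen in replicates 2 and 3. *Ccr7* was at 116 FPKM in DMSO and 294 FPKM with the inhibitor, and *S1pr1* at 6.78 and 16.1 FPKM. Their log2 ratios of 1.33 and 1.14, on the scale of log2(FPKM + 1), were larger than the log2 fold changes of 0.21 and 0.16 in the count table. *Lef1*, *Bach2* and *Myb* had the opposite sign from replicates 2 and 3. *Lef1* was nearly level at 44 and 47.7 FPKM, *Bach2* was lower at 8.71 and 7.06 FPKM, and *Myb* was higher at 4.79 and 21.7 FPKM. Of the 9 members, 3 passed a log2 ratio of 1 in this pair, all higher with the inhibitor, against 6.97% in either direction of the 10448 genes at 1 FPKM or more in both libraries. Of the 7 members called in the count table, 5 had the same sign here. The preparations differ in kit, in the B cell transcripts given above and possibly in treatment, and their parts cannot be told apart.

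**Figure D2:**
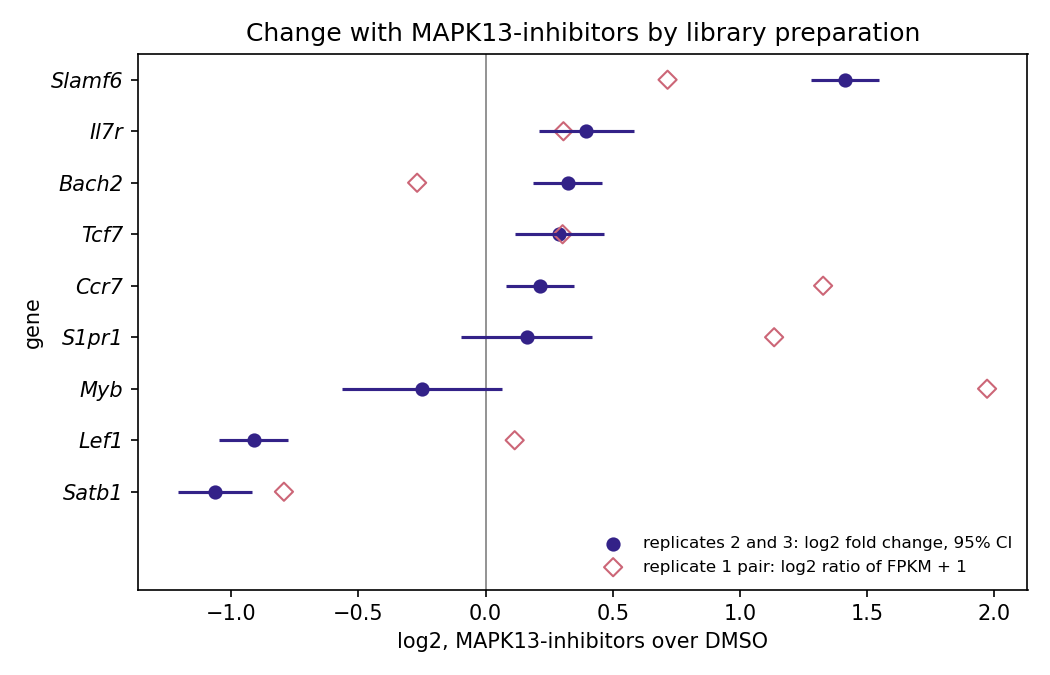
Log2 change of each gene with MAPK13-inhibitors over DMSO: filled points with 95% intervals are fitted log2 fold changes from replicates 2 and 3 (n = 2 per group), open diamonds are log2 ratios of FPKM + 1 in the replicate 1 pair, which has no error. The diamonds of *Lef1*, *Bach2* and *Myb* lie on the other side of 0 from the filled points, and those of *Ccr7*, *S1pr1* and *Myb* lie beyond 1.

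Levels of the members were ordered by CPM per kilobase, using the summed length of all annotated exons. In both DMSO libraries the order was *Ccr7*, *Tcf7*, *Satb1*, *Bach2*, *Lef1*, *Il7r*, *Slamf6*, *S1pr1* and *Myb*. *Ccr7* stood at 329 and 334 CPM per kilobase, *Tcf7* at 60.3 and 62.6, and *Myb* at 1.85 and 2.07. With the inhibitor *Satb1* stood behind *Bach2*, and *Slamf6*, at 16.4 and 15.9 CPM per kilobase, moved ahead of *Il7r* and of *Lef1*, which stood at 9.02 and 9.13. Within each group no neighbours in the order overlapped between their 2 libraries. In the replicate 1 pair *Satb1* led in DMSO and *Ccr7* led with the inhibitor, and *Bach2* was last with the inhibitor, at 7.06 FPKM. *Slamf6* relative to *Satb1* per kilobase was 0.135 and 0.138 in the DMSO libraries of the count table and 0.83 and 0.699 in the inhibitor libraries, and in the replicate 1 pair it was 0.225 and 0.649.

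Genes of like pattern were sought among 5702 tested genes with a mean log2 CPM of at least 5, by the root mean square difference of centred log2 CPM over the 4 libraries of the count table. For *Tcf7* the nearest were *Cln6*, *Impa2*, *Fdps*, *Rnf126* and *Tmem184b*, at distances from 0.0254 to 0.0309. *Fdps*, an enzyme of isoprenoid synthesis, had 110.4 and 109 CPM in DMSO and 123 and 147 CPM with the inhibitor. *Acly*, which makes cytosolic acetyl-CoA, and *Ppard* were nearest to *Ccr7*, with *Acly* at a distance of 0.00688. *Il2rb*, the beta chain of the IL-2 receptor, and *Emc10* were nearest to *Satb1*, and *Il2rb* had 1034 and 1067 CPM in DMSO and 466 and 542 CPM with the inhibitor. *Atp5g1* and *Chfr* were nearest to *Lef1*, *Ttyh3* and *Tsc22d3* to *Slamf6*, *Tmem243* and *Nr2c2* to *Il7r*, *Nadk2* and *Sbk1* to *Bach2*, *Adcy3* and *Pus1* to *S1pr1*, and *Socs3* and *Cit* to *Myb*. With 4 libraries in 2 groups such likeness mostly restates the group difference. In the replicate 1 pair it held for some of these genes and not for others. *Il2rb* was level there, at 193.8 and 197.8 FPKM, while *Satb1* was lower. *Fdps* was lower, at 104.2 and 76 FPKM, while *Tcf7* was higher. *Acly* was higher, at 55.4 and 70.9 FPKM, as was *Ccr7*.

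Of 22 other genes of resting T cells, 9 were higher, 7 were lower and 6 did not pass, with a median log2 fold change of 0.01, the same as for all genes (0.01). Their log2 ratios had a median of 0.20 in the replicate 1 pair. *Pik3ip1*, an inhibitor of PI3K signaling, rose from 15.1 ± 2.06 to 48.8 ± 1.25 CPM (SD, n = 2, log2 fold change 1.69). *Tsc22d3*, a glucocorticoid- and FOXO-induced gene, rose by 1.47 and *Klf3* by 1.17 on the log2 scale, while *Il6ra* fell by 0.69. *Klf2*, a regulator of *S1pr1*, had 15.1 and 14.5 CPM in DMSO and 15 and 16.9 CPM with the inhibitor, and did not pass (adjusted p = 0.421, edgeR). Without DMSO replicate 2 the lower genes numbered 4. Among 14 genes of stem-like and memory cells, 6 were lower and 3 higher, with a median log2 fold change of -0.20 against a median log2 ratio of 0.30 in the replicate 1 pair. *Izumo1r*, which encodes folate receptor 4, had 259 and 266 CPM in DMSO and 15.7 and 23.8 CPM with the inhibitor, a log2 fold change of -3.74. *Cd200* and *Id3* fell by 1.31 and 0.82, and *Zeb1* rose by 0.95. *Cd200* was higher in the replicate 1 pair, at 61.7 FPKM in DMSO and 120.1 FPKM with the inhibitor, and *Tsc22d3* was level there, at 11.2 and 10.8 FPKM.

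Of 18 partners of TCF-1 and LEF-1, 6 were higher and 6 lower, with a median log2 fold change of 0.05 (0.13 in the replicate 1 pair). These counts depended on the scaling and filter, with 9 higher and 5 lower under upper-quartile scaling, 9 and 4 under library totals, and 9 and 5 with 10 counts required in every library. The corepressor genes *Tle1* and *Tle4* moved apart, *Tle1* from 20.2 to 12.6 CPM and *Tle4* from 25.5 to 39.7 CPM on average. *Apc*, a scaffold of beta-catenin destruction, rose by 0.72 on the log2 scale, and *Nlk*, a kinase acting on TCF factors, fell by 0.93 but was higher in the replicate 1 pair, at 6.35 and 10.4 FPKM. Of 11 genes related to Bach2, Satb1 and Myb, 7 were higher and 1 was lower (median 0.34, and 0.05 in the replicate 1 pair). *Mafk*, *Maff* and *Bach1*, whose products pair with each other or bind the same DNA as Bach2, rose by 0.82, 0.56 and 0.74, and the *Myb* paralog *Mybl1* by 0.90.

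Of 12 genes of the IL-7 receptor pathway tested beside *Il7r*, 9 were lower and 1 was higher, with a median log2 fold change of -0.85, whereas in the replicate 1 pair the log2 ratios had a median of 0.14. *Bcl2*, the survival gene downstream of IL-7, had 429 and 441 CPM in DMSO and 151.5 and 165 CPM with the inhibitor (log2 fold change -1.46). The feedback inhibitors *Cish* and *Socs1* fell by 1.39 and 1.38, and *Crlf2*, the chain that joins Il7r in the TSLP receptor, fell by 1.32. *Il7* was at 0 counts in all 4 libraries. In the replicate 1 pair *Bcl2* was also lower, at 53.2 and 24.5 FPKM, whereas *Cish* and *Socs1* were slightly higher, at 146 and 161 FPKM and at 71.9 and 79.1 FPKM.

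Of 15 homing and egress genes tested beside *Ccr7* and *S1pr1*, 4 were higher and 5 lower, with a median of -0.08 (0.10 in the replicate 1 pair). *Sgpl1*, which degrades sphingosine 1-phosphate, rose by 0.78, and *Sphk2*, which makes it, fell by 0.98. *Rgs1*, which dampens chemokine receptor signaling, fell by 1.25 in the count table but was at 111 and 227 FPKM in the replicate 1 pair. Without DMSO replicate 2, and likewise without DMSO replicate 3, the lower genes numbered 3. Among other SLAM receptors and partners in their signaling, 6 of 9 genes tested were lower and 1 was higher (median -0.41, and -0.02 in the replicate 1 pair). *Slamf1* fell from 90 ± 3.61 to 38.7 ± 5.42 CPM, *Slamf7* by 0.83 on the log2 scale, and *Sh2d1a*, which encodes the adaptor SAP, by 1.65. *Slamf1* and *Slamf7* were instead higher with the inhibitor in the replicate 1 pair, at 36.3 and 63.4 FPKM and at 10.6 and 25.2 FPKM. *Cd244a* was the higher one, from 0.62 and 1.18 CPM to 9.78 and 9.44 CPM, and a second gene was called without MAPK13-inhibitors replicate 2, making 2.

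Of 17 genes of effector differentiation, 9 were lower and 2 higher, with a median log2 fold change of -0.25, but a median of 0.42 for the log2 ratios of the replicate 1 pair. *Maf* fell by 2.28, *Il2ra*, the high-affinity chain of the IL-2 receptor, by 1.27 and *Gata3* by 1.09, while the memory marker *Cd44* rose from 168 ± 8.12 to 349.8 ± 15.4 CPM. The higher genes numbered 4 without MAPK13-inhibitors replicate 3, and likewise with upper-quartile or library-total scaling or with 10 counts required in every library. Proliferation genes were lower in 13 of 15, with a median of -0.77, and *Ccnb1*, *Mcm2* and *Pcna* fell by 1.18, 1.07 and 1.04. *Mki67*, the most abundant of the list, did not pass (adjusted p = 0.317, edgeR). It had 417.2 and 416.7 CPM in DMSO and 302.5 and 445.3 CPM with the inhibitor. *Rrm2*, a subunit of ribonucleotide reductase, fell from 165 ± 1.06 to 66.9 ± 17.9 CPM. The number of higher proliferation genes was 0 without DMSO replicate 3 or without MAPK13-inhibitors replicate 3, and 2 without MAPK13-inhibitors replicate 2. For the proliferation genes the replicate 1 pair had a median log2 ratio of -0.83.

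Among the genes the study discusses beside the members, *Slc7a5*, a large neutral amino acid transporter, had 589.7 and 622 CPM in DMSO and 129 and 138 CPM with the inhibitor (log2 fold change -2.19, adjusted p = 4.1e-09, edgeR). *Mat2a*, which makes S-adenosylmethionine from methionine, fell by 0.81. *Mapk13*, the gene of the inhibited kinase, had low counts, with 79 and 74 in DMSO and 21 and 51 with the inhibitor. Its log2 fold change was -1.47, -0.94 without MAPK13-inhibitors replicate 2 and -2.29 without replicate 3 of that group. In the replicate 1 pair it went the other way, at 0.191 and 3.28 FPKM.

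In replicates 2 and 3 the cell type markers differed between the groups. CD4+ T cell markers were lower in 8 of 11 and higher in 0, and their sum was 2223 and 2269 CPM in DMSO and 1475 and 1585 CPM with the inhibitor. *Cd3g*, *Cd3e*, *Cd5* and *Lck* fell by 1.56, 1.37, 1.29 and 1.20 on the log2 scale, *Cd5* being the most abundant of the list in DMSO. B cell markers were higher in 8 of 13 and lower in 3, and their sum was 1294 and 1268 CPM in DMSO and 1461 and 1487 CPM with the inhibitor. *Blnk* and *Cr2* rose by 1.33 and 1.20, while *Vpreb3* and *Fcer2a* fell by 1.84 and 1.00. The CD4+ T cell markers were near level in the replicate 1 pair, with sums of 1374 and 1310 FPKM and a median log2 ratio of 0.09, against a median log2 fold change of -0.71 in the count table. *Cd5*, *Lck* and *Cd3e* were lower there too, and *Cd3g* was slightly higher. The B cell markers had a median log2 ratio of -0.35 in that pair against 0.18 in the count table, with *Blnk* and *Cr2* lower in place of higher. The part of these shifts in the member changes was not tested.

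Markers of further cell types were also counted, and their sums per kilobase are given as shares of the CD4+ T cell list where they were largest. Erythroid markers summed to 14.2 and 14 CPM in DMSO and 91.9 and 67.2 CPM with the inhibitor, where *Hbb-bs* led. Of 9 tested, 6 were higher and 2 lower. The globin genes *Hba-a1*, *Hba-a2* and *Hbb-bt* were higher by 4.15, 3.98 and 3.48 on the log2 scale. The lower ones were *Gata1* and *Epor*, with log2 fold changes of -2.755 and -0.69, and *Klf1* did not pass (adjusted p = 0.4, edgeR). Per kilobase the erythroid share was 1.85% and 1.73% in DMSO and 28.6% and 19% with the inhibitor, against 0.119% and 0.285% in the replicate 1 pair. Macrophage markers summed to 13.7 and 12 CPM and to 43.3 and 35.8 CPM, led by *Cd68* (6 of 7 higher), with shares of 1.54% and 1.34% in DMSO and 7.32% and 5.64% with the inhibitor. Dendritic cell markers summed to 19.5 and 19.7 CPM and to 59.7 and 49.7 CPM, led by *Zbtb46*, with *Flt3* also higher and *Cd209a* at 0 counts in all 4 libraries (4 of 5 higher). In the replicate 1 pair the macrophage and dendritic sums were also higher with the inhibitor. They were 3.03 and 9.58 FPKM for macrophage and 3.39 and 14.7 FPKM for dendritic cell markers. NK markers summed to 13.8 and 12.4 CPM in DMSO, where *Gzma* led, and 7.02 and 6.82 CPM with the inhibitor, with *Klra8* at 0 (1 of 3 higher, 1 lower), whereas in the replicate 1 pair the sums were 4.42 and 7.76 FPKM. CD8 markers, led by *Cd8b1*, stood at 11.7 and 10.9 CPM and at 5.49 and 7.85 CPM (2 of 2 lower). The log2 fold change of *Cd8b1* was -0.60, and it was -0.38 without MAPK13-inhibitors replicate 2. Its call was lost when the libraries were fitted otherwise (adjusted p = 0.0513, DESeq2). *Cd8b1* was higher with the inhibitor in the replicate 1 pair, at 3.36 and 7.84 FPKM. Neutrophil markers stayed between 0.588 and 1.18 CPM in every library, with *S100a9* at 0 and *Mpo* the most abundant with the inhibitor (1 of 1 higher). Of the stress genes, 5 of 11 were higher and 4 lower (median 0.03, and 0.77 in the replicate 1 pair). *Egr1*, *Ddit3* and *Atf3* fell by 2.80, 1.81 and 1.07, and *Hsph1* rose by 1.38, but *Atf3* was higher in the replicate 1 pair, at 34.1 and 61.3 FPKM. Without DMSO replicate 3 the higher stress genes numbered 3.

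Promoter sequences from RefSeq (GRCm38.p6) were found for 7 of the 9 genes, with 15 entries in all, *Lef1* and *Satb1* having several starts each. *Ccr7* and *S1pr1* have no entry. The 250 bases before each start were searched on both strands for the TCF/LEF cores CTTTGA (opposite TCAAAG on the other strand) and CTTTGT (opposite ACAAAG), the FOXO core TGTTTAC (opposite GTAAACA) and the AP-1 and BACH core TGAGTCA (opposite TGACTCA). These occur in 13.8%, 16.5%, 3.17% and 4.46% of the 32851 promoter entries of the table. Among the members, CTTTGA was found for *Lef1* and *Bach2* and CTTTGT for *Lef1* and *Satb1*, and the other motifs for none. The *Lef1* matches all lie before the more downstream of its starts within the gene, where CTTTGA occurs 180 and 120 bases and CTTTGT 146 bases before the start, each on the opposite strand, and the *Bach2* match lies 93 bases before its start, also on the opposite strand. The pair of *Satb1* entries with CTTTGT overlap and share 1 site. A match is a run of letters and not a bound site. The sequences below are those of *Slamf6*, the member that rose most, of *Satb1* and *Lef1*, which fell, and of *Bach2*, each 5′ to 3′ on the strand of its gene, with motif matches in capitals. None overlaps an annotated exon of a protein-coding gene. The windows are chr1:171917212-171917461 (*Slamf6*, plus strand), chr17:51833291-51833540 (*Satb1*, minus strand), chr3:131110047-131110296 (*Lef1*, most upstream start, plus strand), chr3:131156044-131156293 (*Lef1*, most downstream start, plus strand) and chr4:32417185-32417434 (*Bach2*, plus strand, within the gene).
*Slamf6*: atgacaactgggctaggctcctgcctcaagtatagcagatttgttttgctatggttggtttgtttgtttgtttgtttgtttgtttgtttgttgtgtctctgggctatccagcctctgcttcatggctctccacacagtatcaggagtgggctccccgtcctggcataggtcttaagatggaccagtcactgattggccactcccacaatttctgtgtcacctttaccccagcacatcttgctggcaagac
*Satb1*: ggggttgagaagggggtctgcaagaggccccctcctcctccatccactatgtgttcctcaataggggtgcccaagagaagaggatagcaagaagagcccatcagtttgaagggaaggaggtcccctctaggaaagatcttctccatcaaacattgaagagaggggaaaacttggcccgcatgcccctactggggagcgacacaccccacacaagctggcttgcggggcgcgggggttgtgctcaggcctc
*Lef1* upstream: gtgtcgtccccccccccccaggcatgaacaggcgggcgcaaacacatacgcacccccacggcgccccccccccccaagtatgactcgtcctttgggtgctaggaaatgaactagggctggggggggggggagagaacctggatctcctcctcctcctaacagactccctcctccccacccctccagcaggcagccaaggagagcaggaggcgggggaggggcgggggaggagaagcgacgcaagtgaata
*Lef1* downstream: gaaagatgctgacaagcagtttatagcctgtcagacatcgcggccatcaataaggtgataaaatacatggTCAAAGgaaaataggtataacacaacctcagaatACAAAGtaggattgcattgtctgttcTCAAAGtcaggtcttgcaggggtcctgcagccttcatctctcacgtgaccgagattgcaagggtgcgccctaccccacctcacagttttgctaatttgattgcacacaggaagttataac
*Bach2*: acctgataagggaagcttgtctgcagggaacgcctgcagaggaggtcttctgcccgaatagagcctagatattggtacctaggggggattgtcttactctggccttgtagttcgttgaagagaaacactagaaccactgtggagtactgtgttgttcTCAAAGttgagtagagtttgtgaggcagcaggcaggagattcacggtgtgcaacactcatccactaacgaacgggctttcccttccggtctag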

How the data were processed

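Each of the 2 groups had 3 RNA-seq libraries of CD4+ T cells from mouse spleen. For replicates 2 and 3 the authors deposited raw counts per gene, made with fastp 0.21.0, HISAT2 2.1.0 (mm10) and StringTie 2.1.5, with DESeq2 1.30.1 also listed, per the submitters' processing notes. For the replicate 1 pair the authors deposited values read here as FPKM, since they sum to 405150 and 390729 and their ratio to CPM falls with exon length (correlation -0.564 across 10127 genes, which are not independent replicates). The aligner listed is HISAT2, and the quantifier is not given in the sources used here.

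The count table was fitted with edgeR 4.0.16 under R 4.3.3. filterByExpr removed genes of low count (minimum count 10, minimum total 15), TMM set the scale, and the quasi-likelihood test compared 2 libraries with 2 without covariates. Benjamini-Hochberg adjustment ran over all 16269 genes, with a call at an adjusted p under 0.05. Counts were simulated with known changes in a small set of genes, equally up and down, and the same dispersion for every gene. There the fit called 90% of genes changed by 1 and 66% of those changed by 0.5 on the log2 scale, with 7 false calls. In the data 63.8% of genes were called and the groups differed in spread, so these rates may not hold for them. Depth per library was 26874805 and 28487403 counts in DMSO and 33854760 and 32617702 with the inhibitor, and the common biological coefficient of variation was 0.0659. Within groups the libraries varied beyond sampling noise (mean chi-square per gene 3.08 in DMSO and 9.60 with the inhibitor). FPKM were compared as log2 ratios with a pseudocount of 1 and no test, which understates the change of low genes. Exon lengths and positions came from GENCODE vM21 (GRCm38).

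The members and gene lists were chosen with earlier results of these data known. Named genes are the members, *Cd4*, *Slc7a5*, *Mapk13*, *Klf2*, *Mat2a*, *Mki67*, *Gata1*, *Epor* and *Klf1*. Each list adds at most 4 called genes with a mean of at least 5 CPM and the largest absolute log2 fold change. The most abundant marker of each list over the 4 libraries, markers at 0 and genes of like pattern are named too. Not every gene that meets this rule is given. *Trac*, *Trbc1*, *Trbc2*, *Ighm* and *Ighd* had no row by that name. Alternatives were RLE, upper-quartile and library-total scaling, other filters on low counts, DESeq2 1.42.0, a replicate block, each library left out, other thresholds, a pseudocount of 0.1 and median centring of the FPKM ratios.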

Additional observations from a re-analysis of the deposited data

Results flagged for a closer look

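For *Lef1*, *Bach2* and *Myb* the replicate 1 pair had the opposite sign from replicates 2 and 3. This difference between library preparations was not tested. On the log2(FPKM + 1) scale *Lef1* was nearly level in the replicate 1 pair, at 0.11. The median there was 0.05 for genes at 1 FPKM or more in both libraries. In the count table its log2 ratio of CPM was -0.88 between the libraries numbered 2 and -0.94 between those numbered 3. These shared numbers were not taken as pairing. *Bach2* was at -0.27 in the replicate 1 pair against 0.24 and 0.40. *Myb* was at 1.97 in the replicate 1 pair against -0.39 and -0.13, although its change in the count table did not pass the test.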

How the results depend on the processing

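Every member kept its sign under each scaling, filter, test and left-out library. The calls of *Slamf6*, *Satb1*, *Lef1*, *Bach2*, *Tcf7*, *Ccr7* and *Il7r* were kept under each scaling, filter and test. With each library left out in turn, *Ccr7* ranged from 0.12 to 0.30, *Il7r* from 0.28 to 0.50 and *Myb* from -0.48 to -0.056. The calls of *Ccr7* and *Il7r* were lost without DMSO replicate 2. A left-out library leaves 1 sample in its group, which is assumed to vary like the other group. The inhibitor libraries varied more than the DMSO libraries (mean chi-square per gene 9.60 against 3.08). Calls from fits without an inhibitor library are therefore not read as checks. *S1pr1* reached 0.29 with library totals alone, a scaling that moved the median of all genes from 0.01 to 0.14. The cause of these shifts was not tested.

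A log2 fold change over 1 beside the adjusted p left 1686 genes lower and 2113 higher, and 1 member in each direction. It left 1 lower and 3 higher among the resting T cell genes, 2 and 0 among the stem-like genes, 1 and 0 among the TCF and LEF partners, 5 and 0 in the IL-7 receptor pathway, 1 and 0 in homing, 0 and 0 among the Bach2, Satb1 and Myb partners, 3 lower SLAM genes, 5 lower and 0 higher proliferation genes, 1 higher effector gene and 1 higher stress gene. These falls follow from the stricter rule. At an adjusted p under 0.01, 4 resting genes and 3 homing genes were lower, and 0 proliferation and 3 stress genes were higher. Upper-quartile scaling gave 4 lower resting genes, 4 higher effector genes and 3 lower homing genes, and library totals gave 4, 4 and 3 with 2 higher SLAM genes. Requiring 10 counts in every library gave 4 higher effector and 3 lower homing genes, and DESeq2 gave 3 higher stress genes. With a library left out, lower resting genes ranged from 4 to 9, higher effector genes from 2 to 4, lower homing genes from 3 to 6, higher SLAM genes from 1 to 2, higher proliferation genes from 0 to 2 and higher stress genes from 3 to 5.

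In the replicate 1 pair, a pseudocount of 0.1 gave 1.23 for *S1pr1* and 2.16 for *Myb*, and median centring gave 0.065 for *Lef1* and 1.09 for *S1pr1*. With the replicate number as a block, 5384 genes were lower and 5261 higher, with 2 members lower and 5 higher. Differences between replicates 2 and 3 correlated at 0.017 between groups over 11918 genes, so the numbers were not taken as pairing. Depth is unknown for the replicate 1 pair.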
